A study of Mus musculus with 6 samples.

Results

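The genes described here carry the signals of transforming growth factor-β (TGF-β), activins and bone morphogenetic proteins (BMPs). They are 39 genes, all of which had a row on the array, out of 19752 genes tested. They were chosen by symbol from the annotation of the array, with earlier results of these data known. The brightest row of each gene by its mean over the 6 arrays was kept. The RNA came from mature (Vα2hi CD24lo) CD4 SP thymocytes of mice with the OT-II TCR transgene, a receptor restricted by MHC class II that fixes TCR specificity. The dKO cells, with the genotype label Jmd3f/f-utxf/f, had lost Jmjd3 (gene *Kdm6b*) and Utx (gene *Kdm6a*), the H3K27Me3 demethylases, through Cre expressed under *Cd4* control, which acts from the DP stage on and removes exons coding for the catalytic domain. Cre-negative OT-II mice gave the wild-type cells, and the Methods call such controls littermates with floxed alleles. The ages of the mice behind single arrays are not given, and the Methods name female mice unless stated otherwise.

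Each genotype was measured on 3 arrays, labelled as biological replicates without saying whether the mice were separate, and the p-values here therefore reflect variation among these samples, which may be technical. Values are on the log2 scale after normalization between arrays, a difference of 1 being a 2-fold change, and array medians lay between 6.27 and 6.33. *Kdm6a* had log2 values of 9.48, 9.40 and 9.58 on the dKO arrays, against 10.16, 10.11 and 10.20 on the wild-type arrays. *Kdm6b* did not pass the test (log2 fold change -0.09, adjusted p = 0.32), although a row that spans a whole transcript does not measure the deletion. All 11 measured T-cell markers lay above a reference level of 5.55, the 95th percentile of the mean log2 values of 1194 olfactory and vomeronasal receptor genes, which thymocytes are not known to use. Markers of other cells stood as follows. Of 7 B-cell markers 5 lay below that level in both genotypes, as did 7 of 12 myeloid, 5 of 12 stromal or endothelial, 3 of 8 thymic epithelial and 3 of 5 erythroid or platelet markers. Among the B-cell, myeloid and erythroid or platelet markers, *Lyz2* passed as higher (0.81, above the level in dKO cells only). *Itgam* (-0.78, above it in wild-type cells only), *Cd79b* (-0.63), *Cd68* (-0.31) and *Itga2b* (-0.31) passed as lower.

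A TGF-β family ligand brings together a type II and a type I receptor kinase. The type II receptor activates the type I receptor, which then phosphorylates receptor-regulated Smads, Smad2 and Smad3 after TGF-β or activin and Smad1, Smad5 and Smad9 after BMP. These join Smad4 and enter the nucleus, where Smad7, Skil and other target genes feed back on the pathway. In the thymus, TGF-β signalling acts on the survival of developing regulatory T-cells and on NKT and CD8 cells, whereas BMP4 from stromal cells acts mainly on epithelium and on early progenitors.

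In dKO cells, 10 of the 39 genes were lower and 9 were higher at an adjusted p under 0.05 (limma, Benjamini-Hochberg over all genes), and 20 did not pass the test. Over all genes, 10.0% were lower and 13.1% were higher, together 23.1%, a split that turned round after cyclic loess normalization (2328 genes lower and 2222 higher, against 1976 and 2587). Of the 39 genes 32 lay above the reference level in at least 1 genotype, and of the 12716 such genes over all, 34.0% were called, with a median size of change of 0.12. A change of 2-fold or more was measured for 3 of the 39 genes, *Bmpr1a*, *Rgmb* and *Smad7*, and for 0.805% of all genes, that of *Bmpr1a* being measured against wild-type values below the reference level. The median log2 fold change was -0.03 over the 39 genes and 0.01 over all genes, while the median size of the change, regardless of sign, was 0.16 over the 39 and 0.08 over all genes. The largest increases were those of BMP receptor and coreceptor genes, and the largest decrease was that of the inhibitory Smad gene *Smad7*. Groups that did not overlap were seen with the dKO arrays below for 11 of the 39 genes (16.5% of all genes) and with the dKO arrays above for 11 (21.3% of all genes, and 37.7% in either direction). Without dKO replicate 1 or without dKO replicate 2, the count of genes lower was 6. Because the 39 genes were chosen with earlier results known, their shares beside those of all genes are a description and not a test.

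**Figure D1:**
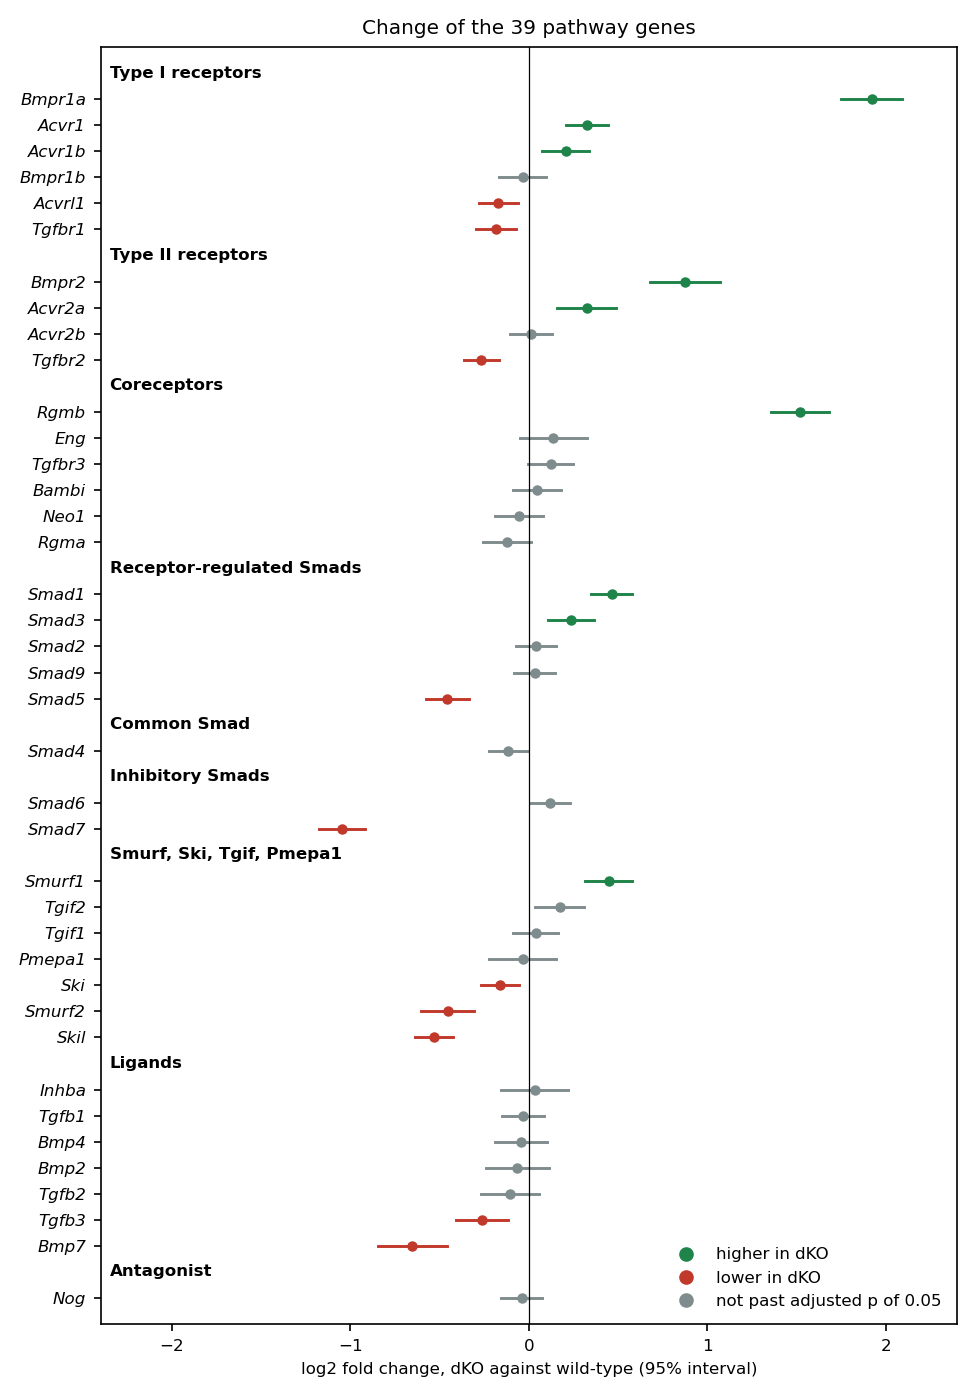
Change in dKO relative to wild-type cells (log2 units, horizontal axis) of each of the 39 pathway genes, grouped by role (rows), with its 95% interval from limma; green marks genes higher, red genes lower and grey genes not past an adjusted p of 0.05. *Bmpr1a*, *Rgmb* (1.52) and *Bmpr2* (0.87) lie farthest to the right, *Bmpr1a* at its measured difference of 1.92, which is at least 0.96 if the wild-type value is taken at the reference level, and *Smad7* (-1.05) farthest to the left.

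*Bmpr1a*, which encodes a type I receptor for BMPs, was at least 1.94-fold higher in dKO cells, a bound that takes the reference level for the wild-type value. Its log2 values were 6.49, 6.39 and 6.64 on the dKO arrays, against 4.71, 4.58 and 4.47 on the wild-type arrays. The groups were far apart, and only the dKO values lay above the reference level, the wild-type values being in the range of the olfactory receptor genes (measured means 6.51 ± 0.13 in dKO and 4.59 ± 0.12 in wild-type cells, SD, n = 3 each; adjusted p = 2.2e-07). *Bmpr2*, the type II receptor that pairs with it, was 1.83-fold higher, with log2 values of 8.51, 8.76 and 8.90 in dKO cells, against 7.79, 7.83 and 7.93 in wild-type cells. The lowest dKO array stood clear of the highest wild-type array, although the dKO arrays varied more than the wild-type ones (SD 0.20 against 0.07; log2 fold change 0.87, standard error 0.09, adjusted p = 8.1e-05). *Bmpr1b*, another of the BMP type I receptors, lay below the reference level in both genotypes, at a mean log2 value of 4.33 ± 0.11 in dKO and 4.36 ± 0.02 in wild-type cells (SD, n = 3 each).

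*Rgmb*, which encodes a membrane-anchored coreceptor that binds BMPs (RGMb, also known as Dragon), was 2.87-fold higher in dKO cells. Its log2 values were 8.71, 8.91 and 8.80 on the dKO arrays, against 7.35, 7.15 and 7.36 on the wild-type arrays. Both groups lay above the reference level and did not overlap (log2 fold change 1.52, standard error 0.07, adjusted p = 6.1e-07). Its paralog *Rgma* did not pass the test, at 6.46 ± 0.11 in dKO and 6.58 ± 0.04 in wild-type cells (SD, n = 3 each; adjusted p = 0.19). *Neo1*, encoding neogenin, the receptor that RGM proteins bind, lay below the reference level in both genotypes, at 4.81 ± 0.10 in dKO and 4.86 ± 0.06 in wild-type cells.

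The sequences before the annotated starts of *Bmpr1a*, *Bmpr2* and *Rgmb* are given because these were the 3 genes with the largest increases. That of *Tgfbr2* is given because it encodes a receptor of the same family that was lower in dKO cells. A link between these sequences and the changes was not tested. Each is the stretch of 250 bases before the most upstream start in the RefSeq table of the GRCm38.p6 assembly. Capitals mark matches to CAGAC on either strand, a Smad box, or to GGCGCC, a GC-rich element that BMP-activated Smads bind.
*Bmpr1a*, chr14:34502547-34502796, minus strand: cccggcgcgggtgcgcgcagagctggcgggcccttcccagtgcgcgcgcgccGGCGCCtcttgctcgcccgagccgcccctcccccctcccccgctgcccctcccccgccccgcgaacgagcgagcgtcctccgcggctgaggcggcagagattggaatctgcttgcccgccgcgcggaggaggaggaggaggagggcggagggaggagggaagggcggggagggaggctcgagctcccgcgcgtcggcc
*Bmpr2*, chr1:59764029-59764278, plus strand: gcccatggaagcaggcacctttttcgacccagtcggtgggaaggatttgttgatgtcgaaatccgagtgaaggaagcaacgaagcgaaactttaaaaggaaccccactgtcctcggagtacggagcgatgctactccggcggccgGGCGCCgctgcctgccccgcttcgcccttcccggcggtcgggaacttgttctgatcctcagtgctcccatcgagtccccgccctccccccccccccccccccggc
*Rgmb*, chr17:15831247-15831496, minus strand: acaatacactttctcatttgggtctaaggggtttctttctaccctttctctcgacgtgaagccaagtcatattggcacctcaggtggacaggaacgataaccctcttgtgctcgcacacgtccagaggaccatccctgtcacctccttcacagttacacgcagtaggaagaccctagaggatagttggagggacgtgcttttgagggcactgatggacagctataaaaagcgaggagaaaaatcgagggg
*Tgfbr2*, chr9:116175364-116175613, minus strand: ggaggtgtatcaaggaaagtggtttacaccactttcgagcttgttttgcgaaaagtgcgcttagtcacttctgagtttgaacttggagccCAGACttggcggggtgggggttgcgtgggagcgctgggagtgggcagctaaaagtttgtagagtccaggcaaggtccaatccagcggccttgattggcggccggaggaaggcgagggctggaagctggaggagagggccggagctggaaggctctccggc

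GGCGCC occurred once each in the stretches of *Bmpr1a* and *Bmpr2*, CAGAC once in that of *Tgfbr2*, and neither in that of *Rgmb*. Of the 39 genes, 26 were matched to the RefSeq promoter table. The feedback genes *Smad7*, *Skil* and *Pmepa1* were not among them, so their promoters were not searched. In these, CAGAC was present in 9 (34.6%, against 42.2% of all 27025 promoters), GGCGCC in 7 (26.9%, against 9.57%) and the Smad palindrome GTCTAGAC in none (0.174% of all promoters). The G and C content of the stretch was 78.8% for *Bmpr1a*, 64% for *Bmpr2*, 50% for *Rgmb* and 58.4% for *Tgfbr2*. The median was 71% over the 26 genes and 52% over all promoters. CpG dinucleotides numbered 36 before *Bmpr1a*, 22 before *Bmpr2*, 9 before *Rgmb* and 12 before *Tgfbr2*, with a median of 6 over all promoters.

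Of the 10 type I and type II receptor genes, 5 were higher and 3 were lower in dKO cells. Over all genes, 13.1% were higher and 10.0% lower, and 34.0% were called among those above the reference level in at least 1 genotype. *Acvr1*, counted as higher, lay below that level in both genotypes. The TGF-β receptors themselves were lower. *Tgfbr2*, the type II receptor for TGF-β, had log2 values of 10.92, 10.94 and 10.96 on the dKO arrays, against 11.22, 11.21 and 11.18 on the wild-type arrays. The arrays of each genotype lay within a narrow band, and the dKO mean was 83.2% of that in wild-type cells (log2 fold change -0.27, standard error 0.04, adjusted p = 0.0017). *Tgfbr1*, the type I receptor for TGF-β, had log2 values of 8.90, 8.90 and 9.01 in dKO cells, against 9.13, 9.08 and 9.14 in wild-type cells. The groups did not overlap but lay close together (log2 fold change -0.18, adjusted p = 0.025). *Acvrl1*, a type I receptor best known from endothelium, had log2 values of 9.42, 9.47 and 9.48 in dKO cells, against 9.57, 9.63 and 9.68 in wild-type cells. The change of *Acvrl1* was close in size to that of *Tgfbr1* (-0.17, adjusted p = 0.030).

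Of the activin receptor genes, *Acvr2a* (type II) was 1.25-fold higher. Its log2 values were 6.15, 6.16 and 6.27 in dKO cells, against 5.70, 5.96 and 5.96 in wild-type cells, without overlap (adjusted p = 0.010). *Acvr1*, a type I receptor used by BMPs and activins, had log2 values of 5.36, 5.43 and 5.48 in dKO cells, against 5.16, 5.09 and 5.04 in wild-type cells. It passed the test as higher (adjusted p = 0.0015), but both means lay below the reference level, and no fold is given. *Acvr1b*, the type I receptor for activin, had log2 values of 9.10, 9.08 and 9.19 in dKO cells, against 8.96, 8.98 and 8.81 in wild-type cells (log2 fold change 0.21, adjusted p = 0.029). *Acvr2b*, a type II receptor for activin, did not pass, at 5.84 ± 0.08 in dKO and 5.83 ± 0.04 in wild-type cells (SD, n = 3 each).

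The calls on 3 of these receptors were lost when any 1 of several arrays was left out, while the direction of change was kept. That on *Tgfbr1* was lost without dKO replicate 1 (adjusted p = 0.078), dKO replicate 2 (0.093), wild-type replicate 1 (0.069) or wild-type replicate 3 (0.071). That on *Acvr1b* was lost without any of the dKO arrays (0.056, 0.052 and 0.096 without replicates 1, 2 and 3) or without wild-type replicate 3 (0.091), and also after cyclic loess normalization (0.057). That on *Acvrl1* was lost without any of the dKO arrays (0.089, 0.066 and 0.052) or without wild-type replicate 2 (0.094) or 3 (0.095). The calls on *Bmpr1a*, *Bmpr2*, *Acvr1*, *Acvr2a* and *Tgfbr2* were kept whichever array was left out.

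**Figure D2:**
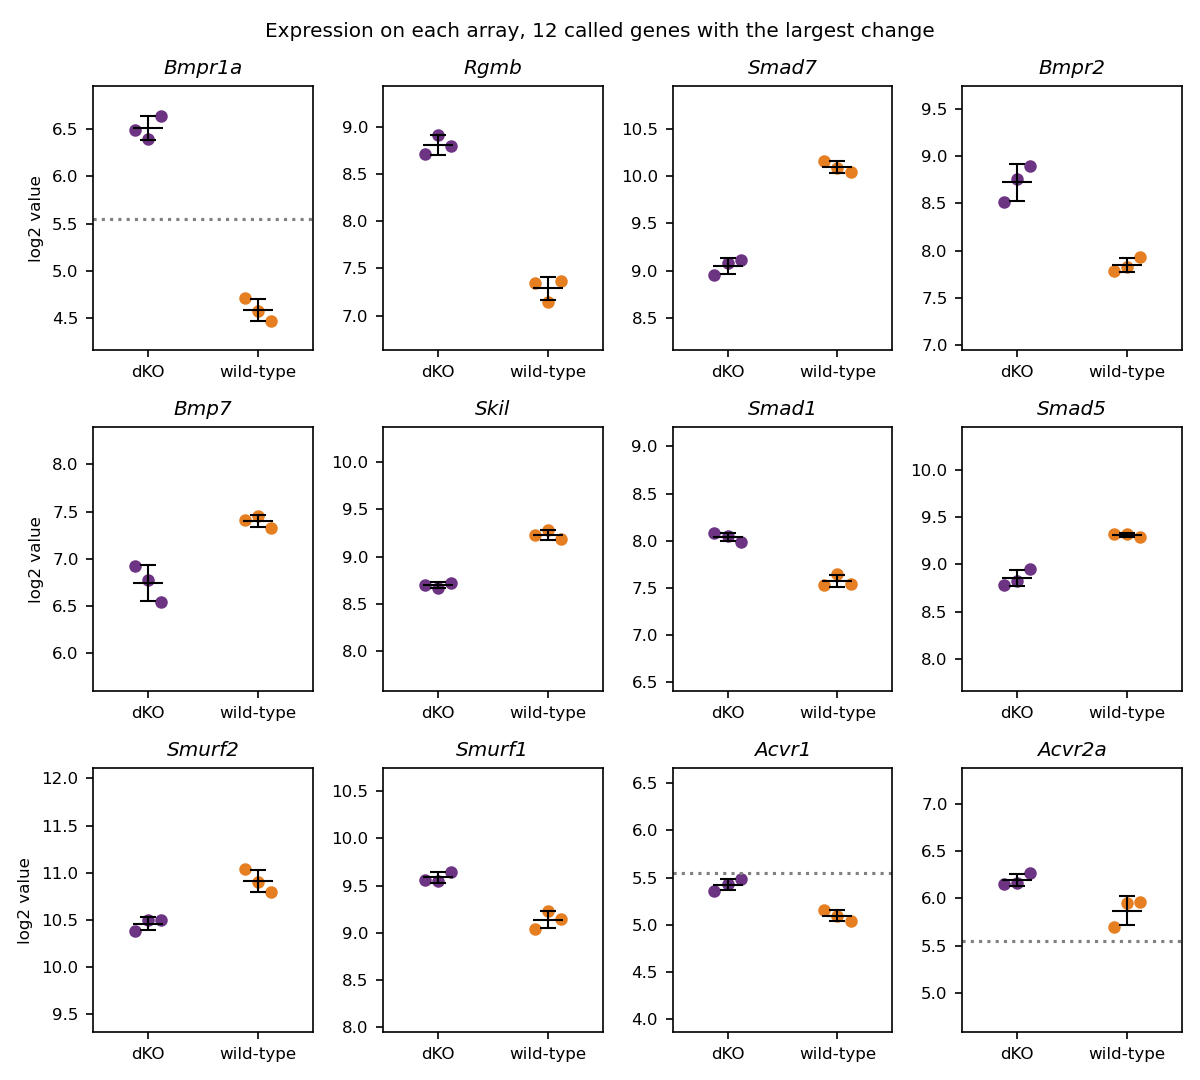
Log2 value on each of the 3 dKO (left) and 3 wild-type (right) arrays for the 12 called genes with the largest change, each panel spanning the same range of log2 units; points are arrays, black bars the mean and SD, and the dotted line the reference level of 5.55 where it falls in the panel. No dKO point overlaps a wild-type point in any panel, which follows largely from choosing called genes by size of change. Over all genes, 37.7% had groups that did not overlap. *Bmpr1a* lies below the reference level only in wild-type cells, and *Acvr1* in both genotypes.

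Among coreceptors, *Rgmb* alone passed the test, 1 of 6, against 23.1% of all genes. *Tgfbr3*, which encodes betaglycan, a coreceptor that presents TGF-β to its receptor, had a mean log2 value of 10.15 ± 0.07 in dKO and 10.03 ± 0.07 in wild-type cells (adjusted p = 0.16). *Eng*, encoding the related endoglin, had 8.01 ± 0.11 in dKO and 7.87 ± 0.17 in wild-type cells (adjusted p = 0.30). Leaving out wild-type replicate 3, the highest of its group, gave *Eng* a log2 fold change of 0.23 and an adjusted p of 0.046. *Bambi*, a pseudoreceptor that lacks a kinase domain, had 6.56 ± 0.09 in dKO and 6.51 ± 0.06 in wild-type cells (adjusted p = 0.66; SD, n = 3 each).

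Of the 8 Smad genes, 2 were lower, 2 were higher and 4 did not pass, while 10.0% of all genes were lower and 13.1% higher. *Smad7*, which encodes an inhibitory Smad that blocks the activated type I receptor, was 2.07-fold lower in dKO cells. Its log2 values were 8.95, 9.08 and 9.12 on the dKO arrays, against 10.16, 10.08 and 10.04 on the wild-type arrays. The groups were separated by far more than the spread within either (log2 fold change -1.05, standard error 0.06, adjusted p = 1.6e-06). *Smad6*, the inhibitory Smad that acts mainly on BMP signals, had 5.73 ± 0.05 in dKO and 5.61 ± 0.05 in wild-type cells (SD, n = 3 each; adjusted p = 0.13), just above the reference level.

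The Smads of the BMP branch moved in opposite directions. *Smad1* had log2 values of 8.08, 8.05 and 7.99 on the dKO arrays, against 7.53, 7.65 and 7.54 on the wild-type arrays, and was 1.38-fold higher (log2 fold change 0.47, adjusted p = 1.5e-04). *Smad5* had log2 values of 8.78, 8.83 and 8.95 in dKO cells, against 9.32, 9.32 and 9.29 in wild-type cells. The dKO mean was 72.9% of that in wild-type cells (log2 fold change -0.46, adjusted p = 2.3e-04), and in both genes the groups did not overlap. The third, *Smad9*, had 6.44 ± 0.04 in dKO and 6.41 ± 0.06 in wild-type cells (adjusted p = 0.73).

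Among Smads of the TGF-β branch, *Smad3* was 1.18-fold higher. Its log2 values were 10.22, 10.35 and 10.35 in dKO cells, against 10.12, 10.10 and 9.99 in wild-type cells (log2 fold change 0.24, adjusted p = 0.013). The call was lost without dKO replicate 2 (adjusted p = 0.057). *Smad2* had log2 values of 9.08, 8.95 and 9.00 in dKO cells, against 9.01, 8.95 and 8.96 in wild-type cells. The groups overlapped, and the 95% interval of the difference was -0.07 to 0.15 (adjusted p = 0.67). *Smad4*, the partner of both branches, had log2 values of 11.38, 11.46 and 11.51 in dKO cells, against 11.54, 11.58 and 11.57 in wild-type cells. Its groups did not overlap, but the log2 fold change of -0.11 did not pass the test (adjusted p = 0.14), except with an intensity trend and robust variances (0.046).

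Genes that restrain Smads in the nucleus or target them for degradation also split. *Skil*, which encodes SnoN, a corepressor of Smads whose gene TGF-β induces, had log2 values of 8.70, 8.67 and 8.72 on the dKO arrays, against 9.22, 9.28 and 9.18 on the wild-type arrays. The arrays of each group lay close together (SD 0.03 in dKO and 0.05 in wild-type cells), and the dKO mean was 69.2% of that in wild-type cells (log2 fold change -0.53, standard error 0.05, adjusted p = 3.6e-05). *Ski*, the related corepressor, had log2 values of 10.40, 10.48 and 10.44 in dKO cells, against 10.56, 10.64 and 10.62 in wild-type cells (log2 fold change -0.16, adjusted p = 0.035). That call was lost without any of the dKO arrays (adjusted p = 0.10, 0.051 and 0.076 without replicates 1, 2 and 3), without wild-type replicate 2 (0.13) or 3 (0.085), and after quantile normalization again (0.082).

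*Smurf1* and *Smurf2*, both encoding ubiquitin ligases that act on Smads and, through Smad7, on the type I receptor, moved in opposite directions. *Smurf1* had log2 values of 9.56, 9.55 and 9.65 in dKO cells, against 9.04, 9.23 and 9.15 in wild-type cells, and was 1.36-fold higher (log2 fold change 0.45, adjusted p = 4.1e-04). *Smurf2* had log2 values of 10.38, 10.50 and 10.50 in dKO cells, against 11.04, 10.91 and 10.80 in wild-type cells, and was 1.37-fold lower (-0.45, adjusted p = 8.2e-04). Neither pair of groups overlapped. *Smurf2* was the only one of the 39 genes with a second row, which was much dimmer, at 5.80, 5.80 and 5.86 on the dKO arrays and 5.96, 5.88 and 5.71 on the wild-type arrays. With the mean of both rows its log2 fold change was -0.24 (adjusted p = 0.022).

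The homeobox corepressor genes *Tgif1* and *Tgif2* and the feedback gene *Pmepa1*, whose product sequesters Smads, did not pass the test. *Tgif1* had a mean log2 value of 8.08 ± 0.02 in dKO and 8.04 ± 0.10 in wild-type cells, and *Pmepa1* of 9.68 ± 0.16 in dKO and 9.71 ± 0.11 in wild-type cells. *Tgif2* had 8.21 ± 0.05 in dKO and 8.04 ± 0.11 in wild-type cells (SD, n = 3 each; log2 fold change 0.17, adjusted p = 0.076). *Tgif2* passed without wild-type replicate 3 (adjusted p = 0.017).

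Of the 7 ligand genes, 2 were lower, none was higher and 5 did not pass, while 10.0% of all genes were lower and 13.1% higher. *Bmp7* had log2 values of 6.92, 6.77 and 6.54 on the dKO arrays, against 7.42, 7.45 and 7.33 on the wild-type arrays. The dKO mean was 63.6% of that in wild-type cells, with more spread among the dKO arrays (SD 0.19 against 0.07; log2 fold change -0.65, standard error 0.09, adjusted p = 4.5e-04). *Tgfb1*, the main TGF-β gene of lymphocytes, had log2 values of 10.76, 10.78 and 10.72 in dKO cells, against 10.72, 10.78 and 10.87 in wild-type cells. The groups overlapped, with a 95% interval of the difference of -0.15 to 0.08 (adjusted p = 0.73).

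*Tgfb3* had log2 values of 5.14, 5.19 and 5.39 in dKO cells, against 5.49, 5.50 and 5.52 in wild-type cells (adjusted p = 0.015). Both of its means lay below the reference level, so no fold is given, and the call was lost without dKO replicate 1 (adjusted p = 0.054) or 2 (0.062). *Tgfb2*, *Bmp2* and *Bmp4* also lay below the reference level in both genotypes, with means between 5.01 and 5.47. *Inhba*, encoding a subunit of activin, had 5.66 ± 0.13 in dKO and 5.63 ± 0.14 in wild-type cells. *Nog*, encoding the secreted BMP antagonist noggin, had 6.48 ± 0.02 in dKO and 6.52 ± 0.08 in wild-type cells (SD, n = 3 each; adjusted p = 0.67).

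**Figure D3:**
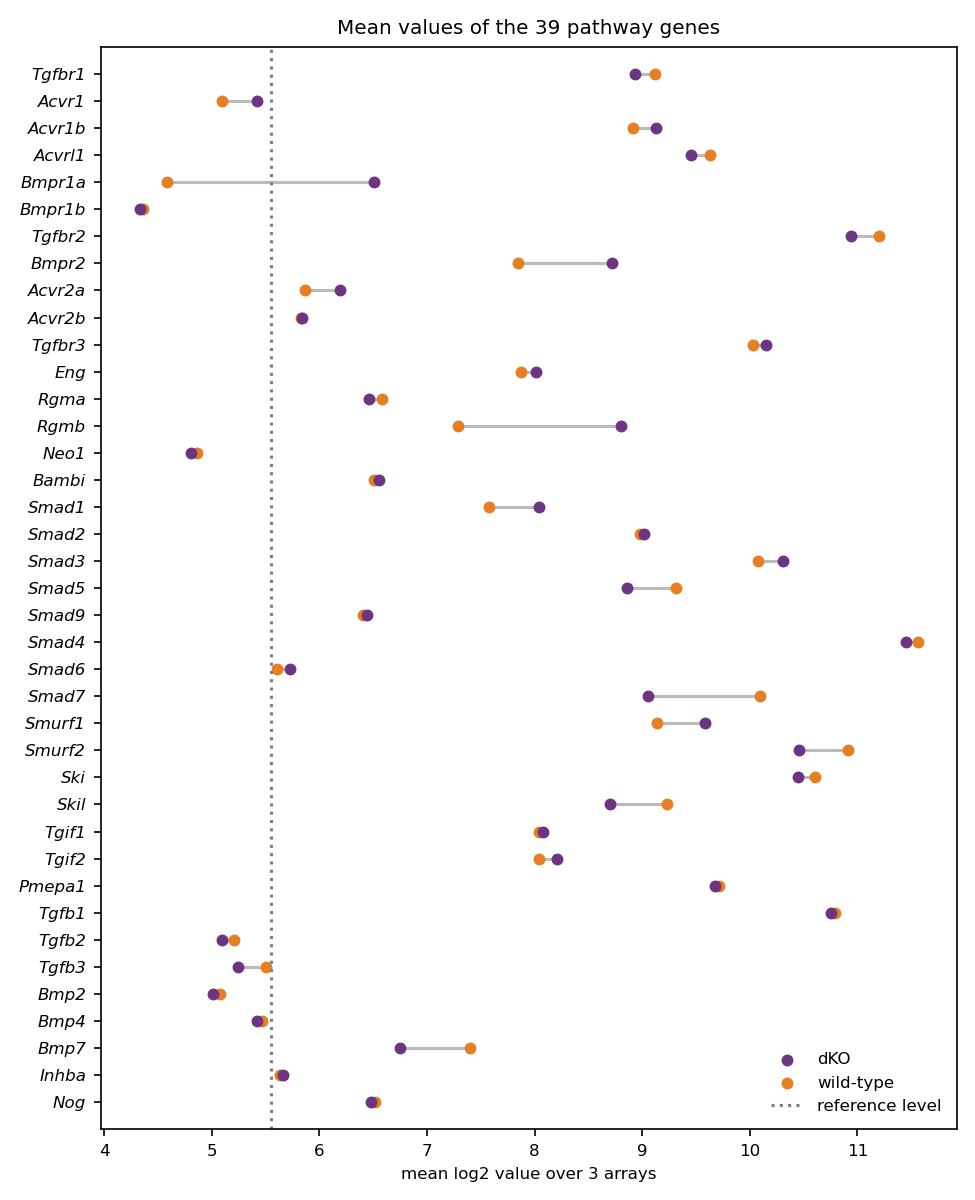
Mean log2 value over 3 dKO (purple) and 3 wild-type (orange) arrays of each of the 39 genes (rows, by role), with the dotted line at the reference level of 5.55. Of the 39 genes, 7 lie below the line in both genotypes and 31 above it in both, while *Bmpr1a* crosses it; because probes differ in affinity, positions of different genes are not to be set against one another.

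The other genes of the pathway were taken from lists of ligands, receptors, antagonists, activators, regulators and response genes, of which 114 of 121 were measured. Of these 13 were lower, 9 were higher and 92 did not pass the test, together 19.3% called against 23.1% of all genes, with a median log2 fold change of -0.01. Among 25 further ligand genes, of which 14 lay below the reference level in both genotypes, only *Gdf11* was called, as higher (log2 fold change 0.22, adjusted p = 0.024). That call was lost without dKO replicate 2 (adjusted p = 0.072) or 3 (0.073), without wild-type replicate 1 (0.075) or 2 (0.072) and after either renormalization (0.096 and 0.086). Of 12 extracellular antagonists, *Twsg1*, which encodes a BMP-binding protein, was lower at -0.34 (adjusted p = 0.0014), with log2 values of 8.74, 8.59 and 8.64 in dKO cells, against 8.94, 9.02 and 9.02 in wild-type cells.

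Of 12 genes of TGF-β latency and activation, 3 were lower and none was higher, while 10.0% of all genes were lower and 13.1% higher. *Lrrc32*, which encodes GARP, the protein that holds latent TGF-β on the surface of regulatory T-cells, had log2 values of 5.84, 5.83 and 5.77 in dKO cells, against 6.46, 6.58 and 6.73 in wild-type cells. The dKO mean was 58.4% of that in wild-type cells (log2 fold change -0.78, adjusted p = 3.1e-05), near the reference level. *Nrros*, whose product is related to GARP, fell by 0.26 (adjusted p = 0.0038) and *Pcsk7*, encoding a proprotein convertase, by 0.21 (adjusted p = 0.0071). *Itgav* and *Itgb8*, the chains of an integrin that releases active TGF-β, did not pass (-0.05 each), and *Itgb8* lay below the reference level in both genotypes. Both were picked once their values were known.

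Of 25 regulators of receptors and Smads, 6 were higher and 1 was lower, 28.0% called against 23.1% of all genes. All but 2 of the 25 lay above the reference level, and of all genes above it in at least 1 genotype 34.0% were called. *Usp11*, encoding a deubiquitinase of the TGF-β receptor, was 2.03-fold higher, with log2 values of 7.68, 7.82 and 7.72 in dKO cells, against 6.83, 6.71 and 6.62 in wild-type cells (log2 fold change 1.02, adjusted p = 3.3e-06). *Ctdsp1*, *Ctdsp2* and *Ctdnep1*, which encode phosphatases that act on Smads or BMP receptors, had log2 fold changes between 0.23 and 0.25. *Sptbn1*, encoding a spectrin that serves as an adaptor for Smads, was the gene that fell, by 0.38 (adjusted p = 6.2e-04). The other 2 higher genes were *Stub1* (0.23) and *Ube2o* (0.33), both of ubiquitin transfer. *Ctdsp2*, *Stub1* and *Ube2o* were named once their values were known.

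Among 18 measured genes that TGF-β or BMP is known to induce or repress in lymphocytes or other cells, 5 were lower, 2 were higher and 11 did not pass. The share called was 38.9%, against 23.1% of all genes and 34.0% of those above the reference level in at least 1 genotype. *Klf10*, a TGF-β-inducible transcription factor gene, had log2 values of 7.73, 7.77 and 7.82 in dKO cells, against 8.27, 8.36 and 8.44 in wild-type cells (log2 fold change -0.59, adjusted p = 5.1e-05). *Id3*, a target of BMP, TGF-β and TCR signals, had 8.70, 8.99 and 9.03 in dKO cells, against 9.52, 9.69 and 9.55 in wild-type cells (-0.68, adjusted p = 3.2e-04). *Id1*, the BMP target gene used most often, did not pass (-0.05, adjusted p = 0.60). *Itgae*, encoding the TGF-β-induced integrin chain CD103, fell by 0.26 (adjusted p = 0.0052), with means of 5.74 in dKO and 6.01 in wild-type cells, also near that level. *Foxp3* and *Bcl2* were the other 2 genes that were lower, at -0.89 and -1.10. Those higher were *Il7r* (0.20) and *Klf11* (0.18). *Itgae*, *Il7r*, *Klf11* and *Id1* were named once their values were known.

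Markers of regulatory T-cells moved in the same direction as *Smad7*, *Skil*, *Lrrc32* and *Foxp3*. All 10 genes of that list, which holds *Lrrc32* and *Foxp3*, were lower in dKO cells (10.0% of all genes were), with a median log2 fold change of -0.90. Their summed linear value was 2224 to 2428 on the dKO arrays, against 4028 to 4141 on the wild-type arrays, and none lay below the reference level. In sorted cells measured in bulk, fewer cells of a type and less RNA per cell cannot be told apart. Of 9 markers of DP thymocytes, 4 were higher and 3 were lower, against 13.1% and 10.0% of all genes. Those higher were *Dntt* (1.52), *Cd8b1* (0.54), *Cd1d1* (0.44) and *Mns1* (0.32), and those lower *Rag1* (-0.55), *Plxnd1* (-0.32) and *Arpp21* (-0.25). The summed linear value of all 9 was 3010 to 3236 in dKO cells, against 2252 to 2570 in wild-type cells, and only *Rag2* lay below the reference level. Most of the difference in that sum came from *Dntt* and *Cd8b1*. Stromal and endothelial markers, of cells known for *Eng*, *Acvrl1* and *Bmp4*, summed to 1444 to 1542 in dKO cells, against 1819 to 1900.5 in wild-type cells. Of these 12 genes only *Pecam1*, which T-cells also express, was called, as lower. It was the brightest of the list, at a mean log2 value of 9.73 in dKO and 10.24 in wild-type cells. Most of the difference in the sum came from it. *Pdgfra*, *Pdgfrb*, *Dcn*, *Kdr* and *Tek* lay below the reference level in both genotypes. The part of these cell types in the changes of the pathway genes was not tested.

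**Figure D4:**
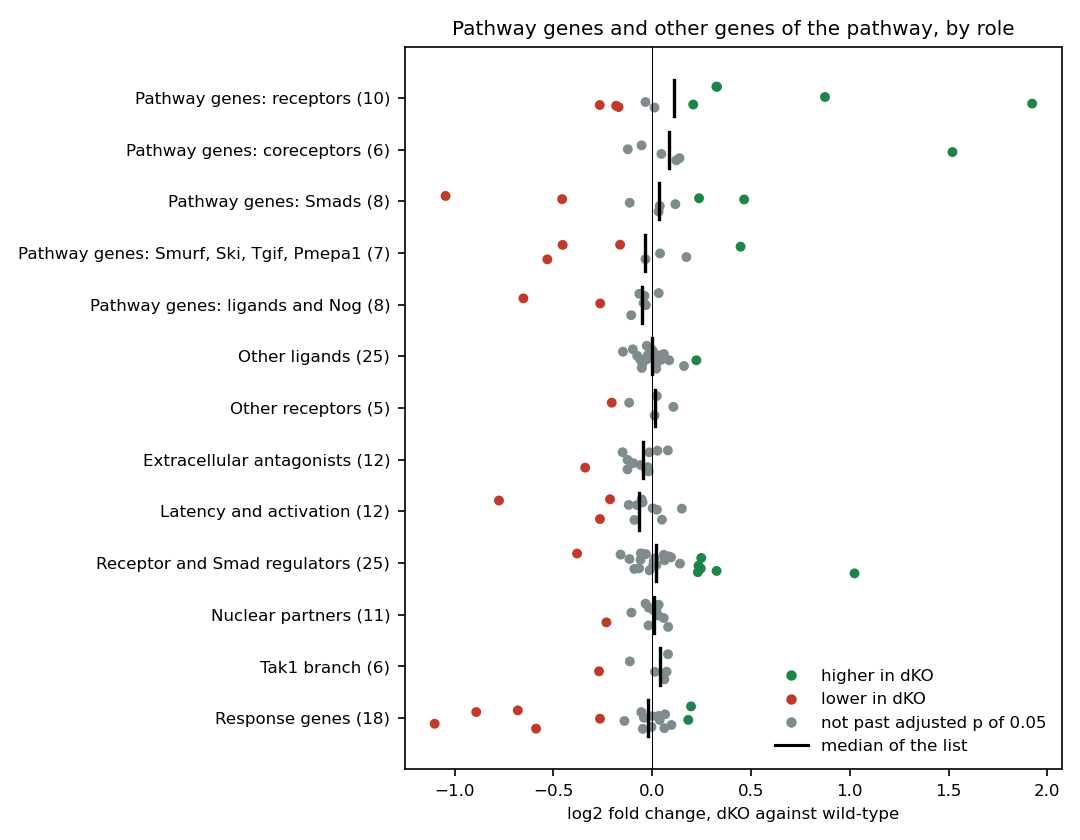
Change in dKO relative to wild-type cells (log2 units, horizontal axis) of the 39 pathway genes by role and of the other genes of the pathway by list (rows, number measured in brackets); each point is a gene, green if called higher, red if called lower and grey if not called, spread vertically for legibility, and black bars are medians. The medians lie near 0 in every row, from 0.11 for receptors to -0.06 for latency and activation, and the 2 points farthest to the right are *Bmpr1a* and *Rgmb*.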

How the data were processed

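RNA of 6 samples was measured on Affymetrix Mouse Gene 1.0 ST arrays per the Methods (the design text names the Exon 1.0 ST array). The authors analysed the scanner files in Partek with RMA, versions not given in the sources used here, and deposited background-corrected, quantile-normalized log2 values, 1 per transcript row and array. RMA compresses differences of dim genes and would hide a shift of most genes; the number of arrays limits precision.

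Of 25254 rows, 21496 had 1 gene symbol, 1565 several and 2193 none, and only the first were used. Symbols were updated by Entrez identifier through the RefSeq table of GRCm38.p6 (21415 rows found), and the brightest row per gene left 19752 genes. The deposited log2 values were tested without a filter in limma 3.58.1 (R 4.3.3), with genotype as the only term and a threshold of 0.05 on p-values adjusted by Benjamini-Hochberg over all genes. On simulated arrays of 3 against 3 over 19752 genes, limma recovered 36% of 50 genes changed by 0.25, 96% of 50 changed by 0.5 and all changed by 1 or 2 on the log2 scale, with 9 false calls. Far fewer genes were changed there than the 4563 called in the data, which made the cutoff on p stricter. The recovered shares and the number of false calls therefore do not carry over to the data.

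Every pathway gene is named. Values on every array are given for those past the threshold and for *Tgfbr1*, *Tgfbr2*, *Smad2*, *Smad3*, *Smad4*, *Smad7* and *Tgfb1*. Of other lists, up to 4 genes with the smallest p were eligible. Members and lists were chosen with earlier results of these data known. Alternatives were quantile normalization again, cyclic loess normalization, the brightest 75% or 50% of genes, averaging the rows of a gene, robust variances with an intensity trend, Student's t-test (the Methods name no test for the arrays), a block for the replicate number and each array left out. Promoter letters came from RefSeq (GRCm38.p6). Figures were drawn with matplotlib 3.10.9.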

Additional observations from a re-analysis of the deposited data

How the results depend on the processing

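Under the 14 alternatives, 12 of the 19 called pathway genes stayed past the threshold in the same direction wherever they were tested, namely *Bmpr1a*, *Bmpr2*, *Rgmb*, *Smad1*, *Smad5*, *Smad7*, *Skil*, *Smurf1*, *Smurf2*, *Bmp7*, *Tgfbr2* and *Acvr1*. The other 7 calls, on *Tgfbr1*, *Acvr1b*, *Acvrl1*, *Acvr2a*, *Smad3*, *Ski* and *Tgfb3*, were lost with Student's t-test on single genes, and all but that on *Acvr2a* also without at least 1 array. Student's t-test called 6 pathway genes lower (10 with limma), and its number of genes called over all genes was 2565 (4563 with limma). With 1 array left out, 6 to 9 pathway genes were lower and 7 to 10 higher, and the number of genes called over all genes was 3397 to 4038. After cyclic loess normalization *Smad2* and *Tgif1*, which did not pass, changed sign (-0.00651 and -0.00894). With 1 array left out, further genes that did not pass crossed 0, with log2 fold changes from -0.072 to 0.0268 for *Bmpr1b*, -0.0122 to 0.0555 for *Acvr2b*, -0.0133 to 0.083 for *Tgif1*, -0.0952 to 0.0582 for *Pmepa1*, -0.0666 to 0.00637 for *Tgfb1*, -0.138 to 0.00327 for *Bmp2*, -0.106 to 0.0189 for *Bmp4*, -0.0414 to 0.109 for *Inhba* and -0.0215 to 0.0638 for *Acvr1c*, another type I receptor gene. The causes were not tested. Same-numbered arrays of both genotypes correlated at 0.0993, 0.0243 and 0.0697 in their deviations from the group means, and 2 of 3 dKO and 3 of 3 wild-type arrays correlated best with their own number. As no correlation was over 0.1 and no label ties the numbers to a mouse or a day, the arrays were not treated as pairs. With the replicate block, 10 pathway genes were lower and 9 higher, with *Acvr1b* lost (adjusted p = 0.052) and *Tgif2* gained (0.045), and the number of genes called over all genes was 4544.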

Other observations

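Of 11 measured nuclear partners of Smads only *Ncoa3*, which encodes a coactivator, was called, as lower in dKO cells (log2 fold change -0.23, adjusted p = 0.0089 from limma). The coactivator genes *Crebbp* and *Ep300* did not pass, at -0.11 and 0.03. Of 6 genes of the Tak1 branch, through which TGF-β receptors signal without Smads, *Xiap* was lower, with log2 values of 8.03, 7.97 and 8.15 in dKO cells, against 8.49, 8.22 and 8.26 in wild-type cells (adjusted p = 0.030). That call was lost without dKO replicate 1 (adjusted p = 0.085), dKO replicate 2 (0.11) or wild-type replicate 1 (0.078). *Map3k7*, encoding Tak1 itself, changed by -0.11 on the log2 scale (adjusted p = 0.097) and passed as lower after cyclic loess normalization (0.037), among the brightest 50% of genes (0.049) and with Student's t-test (0.028). Among 5 further receptor genes *Amhr2*, the type II receptor for anti-Müllerian hormone, was lower at -0.21 (adjusted p = 0.016), a call lost without dKO replicate 1 (0.055) or wild-type replicate 3 (0.052). *Ep300* was named once its values were known.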
